A study of Drosophila melanogaster with 9 samples.

Results

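The innate immune genes described here are the antimicrobial peptides of *Drosophila melanogaster* and the proteins that recognise microbes ahead of them. They were chosen by gene symbol: 4 attacins, the cecropins, Def, Dpt, DptB, Dro, Drs and Mtk, the drosomycin-like genes, the IM (immune-induced molecule) peptides, and the peptidoglycan recognition proteins (PGRP) and GNBP proteins. The rule found 37 members among 13140 genes of the deposited tables, and 36 passed the low-count filter that left 12913 genes to be tested. The member that did not pass was PGRP-SC1b, a secreted amidase gene, at 1 to 10 counts per library.

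The libraries were made from whole adult flies of the Canton S background, 10 to 11 days old and wild-type in genotype in every group. The WT group had no obese grandparent. Flies labelled GP/P and GP/M had an obese grandfather and were his F2 progeny, in a series on mutants of the adipokinetic hormone receptor gene AKHR, through a heterozygous father in GP/P and a heterozygous mother in GP/M. Each group had 3 libraries from separate experiments, and libraries of the same number are called a set. The labels used here name neither the sex nor the number of flies in a library, and nothing in them describes exposure to a microbe.

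Flies answer infection without antibodies. Peptidoglycan of Gram-negative bacteria is sensed by PGRP-LC and PGRP-LE, which signal through the Imd pathway to the transcription factor Relish, while Gram-positive bacteria and fungi are sensed by PGRP-SA, PGRP-SD, GNBP1 and GNBP3, which act upstream of the Toll receptor and the factors Dif and Dorsal. Diptericins, attacins, cecropins and drosocin are classical Imd outputs, and drosomycin and most IM peptides, among them the Bomanins, classical Toll outputs. The peptides are made chiefly by the fat body after systemic infection and by epithelia locally.

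Total counts were 21777434 to 28166388 per library. Levels are TMM-scaled CPM, counts scaled to a common library total, and a gene was called at an adjusted p under 0.05 over all genes tested. The summed testis markers were at 2522 to 2879 CPM and the accessory gland markers at 5121 to 5921 CPM, whereas the ovary and eggshell markers together reached only 6.23 to 12.1 CPM. The fat body markers summed to 4925 to 6535 CPM.

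Both peptides and recognition genes were expressed in these flies. Per kilobase of exon, the highest members were the drosomycin-like genes dro4 (Drsl4), with a mean of 589.9 CPM per kb, and dro5 (Drsl5), with 533. The IM peptides IM4 (Daisho 1), IM2 (Bomanin S2), IM1 (Bomanin S1) and IM14 (Daisho 2) followed at 345, 339, 283 and 246 CPM per kb. CecA1, IM3, Mtk, AttC, PGRP-SB1 and Dpt lay between 109 and 156 CPM per kb, and Drs, the best known antifungal peptide of the fly, was at 76.6. The receptor genes were lower on this scale, PGRP-LC at 24.7 and PGRP-SA at 17.4 CPM per kb. AttD, CecC and dro2 (Drsl2) were near the bottom, at 1.58, 2.40 and 1.12 CPM per kb. These levels are means over all 9 libraries with no test between genes. The exon lengths came from a later annotation than the dm3 build of the counts, and the order of the members depends on them.

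One library stood apart in these genes. GP/M 3 was the highest of the 9 libraries for 20 of the 36 members, against 14.9% of all genes tested, and for all 12 members among the attacins, cecropins, diptericins, Def, Dro and Mtk. Its Dpt level of 204 CPM was 2.70 times that of the next library. Among 12316 genes with a mean of at least 1 CPM, 22 (0.179%) were more than 1.5 times higher in GP/M 3 than in any other library, and 9 of the 22 were members. The 9 were CecA2 (3.65 times the next library), AttB (2.86 times), Dpt, AttA (2.36 times), AttD (1.99 times), DptB (1.84 times), AttC (1.65 times), CecA1 (1.54 times) and Dro (1.52 times). Each of the other 8 libraries had 0 to 2 such genes and no member among them. CecC (3.93 times the next library) and dro2 (2.06 times) were also past 1.5 times in GP/M 3, but their means were under 1 CPM.

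The most abundant drosomycin genes, most IM peptides, the GNBP genes and the membrane and intracellular PGRPs other than PGRP-LC were not highest in GP/M 3. The level in GP/M 3 over the highest of the other 8 libraries was 0.845 for Drs, 0.962 for IM2, 0.926 for PGRP-LA and 0.971 for GNBP2. GP/M 3 was ahead of the next library by less than for the 9 genes above in Def (1.43 times) and PGRP-SB1, a secreted amidase (1.31 times). The same held for IM18 (1.29 times), PGRP-LB, a secreted amidase that degrades peptidoglycan (1.16 times), Mtk (1.15 times) and PGRP-SD (1.11 times). PGRP-LC (1.07 times), IM4 (1.01 times) and IM1 (1.01 times) were only just ahead. The genes of this paragraph and the one before were singled out after their values were seen, and no test was made of a library chosen for its level.

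Immune genes outside the membership gave a mixed picture in this library. It was the highest for 6 of 19 Toll pathway genes, 3 of 19 Imd pathway genes, 2 of 19 further humoral effectors tested and 0 of 8 melanisation genes, beside the same 14.9% of all genes. Of the 6 Toll pathway genes, Myd88, Dif and dl were highest in set 3 in every group, whereas CG6361, Gprk2 and Pli were not. The immune-induced gene edin had 96 counts in GP/M 3 and 0 to 3 in each other library. It did not pass the low-count filter, which asks for enough counts in as many libraries as a group has. Genes seen in a single library, edin among them, are therefore outside the 22 genes above and the 2 of 19 effectors. The lysozyme gene LysX, one of the 22, was at 21.9 CPM against 9.62 to 11.8. The other 4 lysozyme genes of the list, LysB, LysD, LysE and LysP, were at their lowest of the 9 libraries in GP/M 3, at 9.84, 27.8, 19.3 and 112 CPM. In WT and GP/P too, LysB and LysD were lowest in set 3, whereas LysE and LysP were lowest in set 1 of GP/P. Rel, which encodes Relish, was at 168.6 CPM against 128.1 to 140.1. The hemocyte markers summed to 639.9 CPM in GP/M 3, the highest of the 9 libraries, against 522.9 to 614.3 in WT and GP/P, with 3 of the 9 markers highest in this library and all 9 above the low-count filter. The fat body markers summed to 6249 CPM, inside the WT range of 4925 to 6535, and the midgut markers to 6598, inside the WT range of 6577 to 7012. The part of hemocyte content in the peptide levels was not tested. In whole flies, fewer cells of a type and less RNA per cell cannot be told apart.

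**Figure D1:**
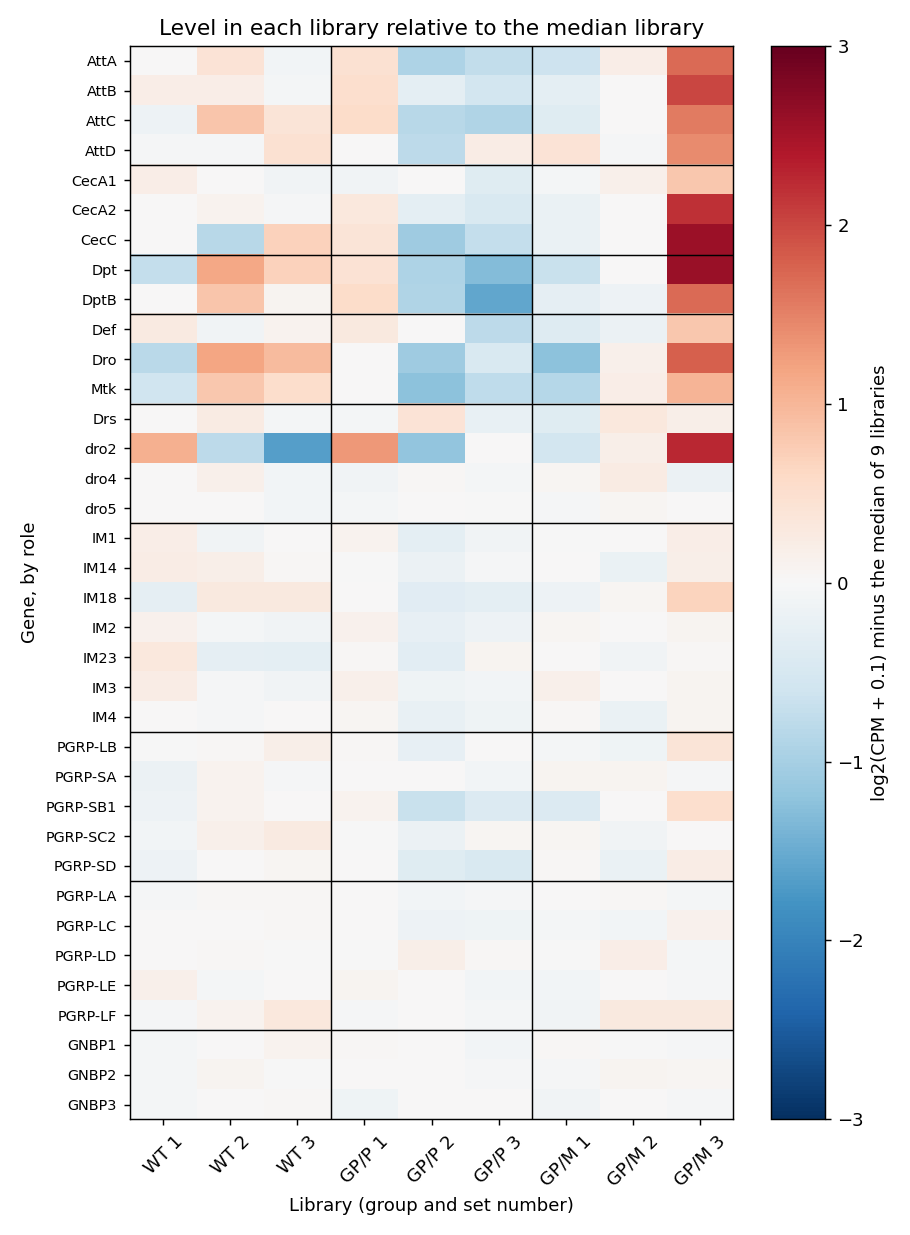
Level of each of the 36 tested members (rows, by role) in each library (columns), as log2(CPM + 0.1) minus the gene's median over the 9 libraries; red is higher, blue lower, and black lines part groups and roles. GP/M 3 is highest for all 12 members from AttA to Mtk, whereas the rows of PGRP-LA and the GNBP genes are nearly even.

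The peptide genes varied more between libraries of one group than most genes did. The standard deviation of log2 CPM within groups had a median of 0.09 and a 90th percentile of 0.18 over 11795 genes whose mean log2 CPM was 1 or more. Of the 33 members in that range, 16 were past the 90th and 10 past the 99th percentile, with a median of 0.17. Within WT and GP/P alone, 14 were past the 90th and 8 past the 99th, so the spread was not confined to GP/M 3. Dpt had a standard deviation of 1.26 and Dro, the proline-rich peptide drosocin, of 1.12. At the other end stood dro5 with 0.05, the receptor gene PGRP-LA with 0.05 and GNBP2 with 0.06. The ratio of the highest to the lowest library was 15.1 for Dpt and 5.60 without GP/M 3, and it was 1.12 for GNBP3.

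**Figure D2:**
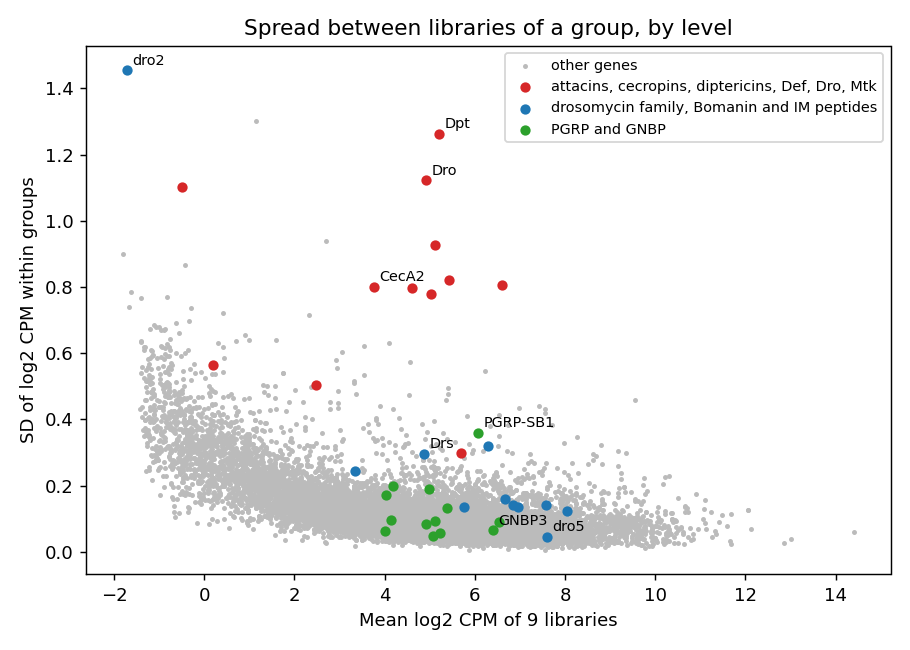
Standard deviation of log2 CPM within groups (vertical axis) against the mean log2 CPM of the 9 libraries (horizontal axis) for every tested gene (grey) and the members (coloured by role). Dpt and Dro lie at 1.26 and 1.12, above nearly all other genes, while dro5 lies at 0.05.

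No member was called in any of the 3 comparisons of descent, and neither was any other gene by edgeR's quasi-likelihood test with Benjamini-Hochberg adjustment (0%, 0% and 0% of 12913 genes). With no adjustment, the members at p under 0.05 were 1 in GP/P against WT (2.59% of all genes), 0 in GP/M against WT (1.53%) and 2 in GP/P against GP/M (1.7%). DESeq2 and limma-voom called 0 genes as well. These fits left out the pairing of libraries by set, and so do the descent intervals and p-values given for single genes. With the sets as a block, edgeR also called 0 genes. At the unadjusted level DESeq2 had 168, 77 and 90 genes and limma-voom 331, 194 and 212, in the same order. In counts simulated for GP/M against WT with 100 genes at each fold, 87% of the genes changed 1.5-fold and 96% of those changed 2-fold were recovered. The changed genes were drawn at random from all genes, and 10 unchanged genes were called too. These shares therefore do not apply to members that spread widely between libraries, such as Dpt. They need not hold for the steadier members either, since the simulated counts had no differences between sets. The simulated counts also held many changed genes at once, which eases the adjusted threshold. The 95% interval of the fold change lay within 1.5-fold on both sides for 21, 21 and 20 of the 36 members, and it reached 2-fold in both directions for 8, 6 and 1.

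The attacins are glycine-rich peptides active against Gram-negative bacteria. AttC was at 80.3, 159.7 and 116 CPM in WT 1 to 3, 129.5, 49.7 and 47.8 in GP/P 1 to 3 and 69.5, 89.1 and 264 in GP/M 1 to 3. It was high in WT 2, GP/P 1 and GP/M 3 and the groups overlapped. Its fold change was 0.635-fold (95% interval 0.204 to 1.98) for GP/P against WT and 1.19-fold (95% interval 0.389 to 3.62) for GP/M against WT. Without GP/P 1 the log2 change of the former went from -0.65 to -1.28, and without GP/M 3 that of the latter from 0.25 to -0.58. AttA and AttB, near-identical neighbours whose reads may have been split between them, ranged from 21.9 to 136 CPM and from 14.6 to 86.9 CPM, both highest in GP/M 3.

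AttD, an attacin without a secretion signal, was scarce, at 0.911, 0.920 and 1.33 CPM in WT 1 to 3, 0.937, 0.497 and 1.11 in GP/P 1 to 3 and 1.28, 0.905 and 2.66 in GP/M 1 to 3. GP/P 2 was lowest and GP/M 3 highest, and GP/P lay below GP/M in each of the 3 sets, although the groups overlapped. GP/P against GP/M was 0.523-fold (95% interval 0.282 to 0.970), with an unadjusted p of 0.0413 and, from edgeR, an adjusted p of 1. Without GP/M 3 its log2 change went from -0.93 to -0.37.

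Cecropins are helical peptides that permeabilise bacterial membranes. CecA1 was at 56.4, 50.1 and 45.8 CPM in WT 1 to 3, 45.6, 49.4 and 38.3 in GP/P 1 to 3 and 47.2, 54.9 and 87.0 in GP/M 1 to 3. GP/M 3 was the one library that stood out, and the other 8 overlapped whatever their group. For GP/M against WT it gave 1.24-fold (95% interval 0.850 to 1.81), and without GP/M 3 the log2 change was 0.00. CecA2, nearly identical to CecA1 over much of its length, was at 12.1, 12.8 and 11.6 CPM in WT 1 to 3, 14.95, 9.75 and 8.74 in GP/P 1 to 3 and 10.3, 11.9 and 54.5 in GP/M 1 to 3. Apart from GP/M 3, the highest library was 1.71 times the lowest. CecC had 15, 7 and 22 counts in WT, 19, 6 and 9 in GP/P and 13, 14 and 102 in GP/M. It gave 2.75-fold (95% interval 0.566 to 13.4) for GP/M against WT, and without GP/M 3 the log2 change went from 1.46 to -0.17.

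The diptericins, active against Gram-negative bacteria, showed the widest range among members above 10 CPM. Dpt (DptA) was at 20.5, 75.6 and 54.5 CPM in WT 1 to 3, 45.4, 17.7 and 13.5 in GP/P 1 to 3 and 21.0, 33.6 and 204 in GP/M 1 to 3. The highest library was WT 2 in its group, GP/P 1 in its group and GP/M 3 in its group, and the groups overlapped. The WT libraries averaged 50.2 ± 27.8 CPM, those of GP/P 25.5 ± 17.3 and those of GP/M 86.2 ± 102 (mean ± SD, 3 libraries each). Dpt gave 0.505-fold (95% interval 0.0847 to 3.01) for GP/P against WT and 1.72-fold (95% interval 0.317 to 9.39) for GP/M against WT. Without GP/P 1 the log2 change of the former went from -0.99 to -1.68, and without GP/M 3 that of the latter from 0.79 to -0.88. DptB was at 33.9, 59.9 and 35.6 CPM in WT 1 to 3, 49.4, 18.0 and 11.5 in GP/P 1 to 3 and 28.3, 30.4 and 110.1 in GP/M 1 to 3, with the same 3 libraries highest in their groups.

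Mtk, the antifungal and antibacterial peptide metchnikowin, was at 23.3, 61.5 and 50.8 CPM in WT 1 to 3, 35.1, 14.8 and 20.6 in GP/P 1 to 3 and 19.3, 40.2 and 71.1 in GP/M 1 to 3. GP/P 2 and WT 2 had the lowest and the second highest level, and the groups overlapped. It gave 0.518-fold (95% interval 0.183 to 1.47) for GP/P against WT and 0.965-fold (95% interval 0.354 to 2.63) for GP/M against WT. Dro was at 16.5, 66.4 and 56.4 CPM in WT 1 to 3, 29.1, 13.9 and 21.2 in GP/P 1 to 3 and 12.3, 32.6 and 101 in GP/M 1 to 3, low in WT 1, GP/P 2 and GP/M 1. Def, the defensin active against Gram-positive bacteria, was at 6.57, 5.06 and 5.85 CPM in WT 1 to 3, 6.77, 5.47 and 3.15 in GP/P 1 to 3 and 4.15, 4.87 and 9.69 in GP/M 1 to 3. It was lowest in GP/P 3 and highest in GP/M 3, and it gave 1.07-fold (95% interval 0.581 to 1.98) for GP/M against WT, where the log2 change went from 0.10 to -0.38 without GP/M 3.

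**Figure D3:**
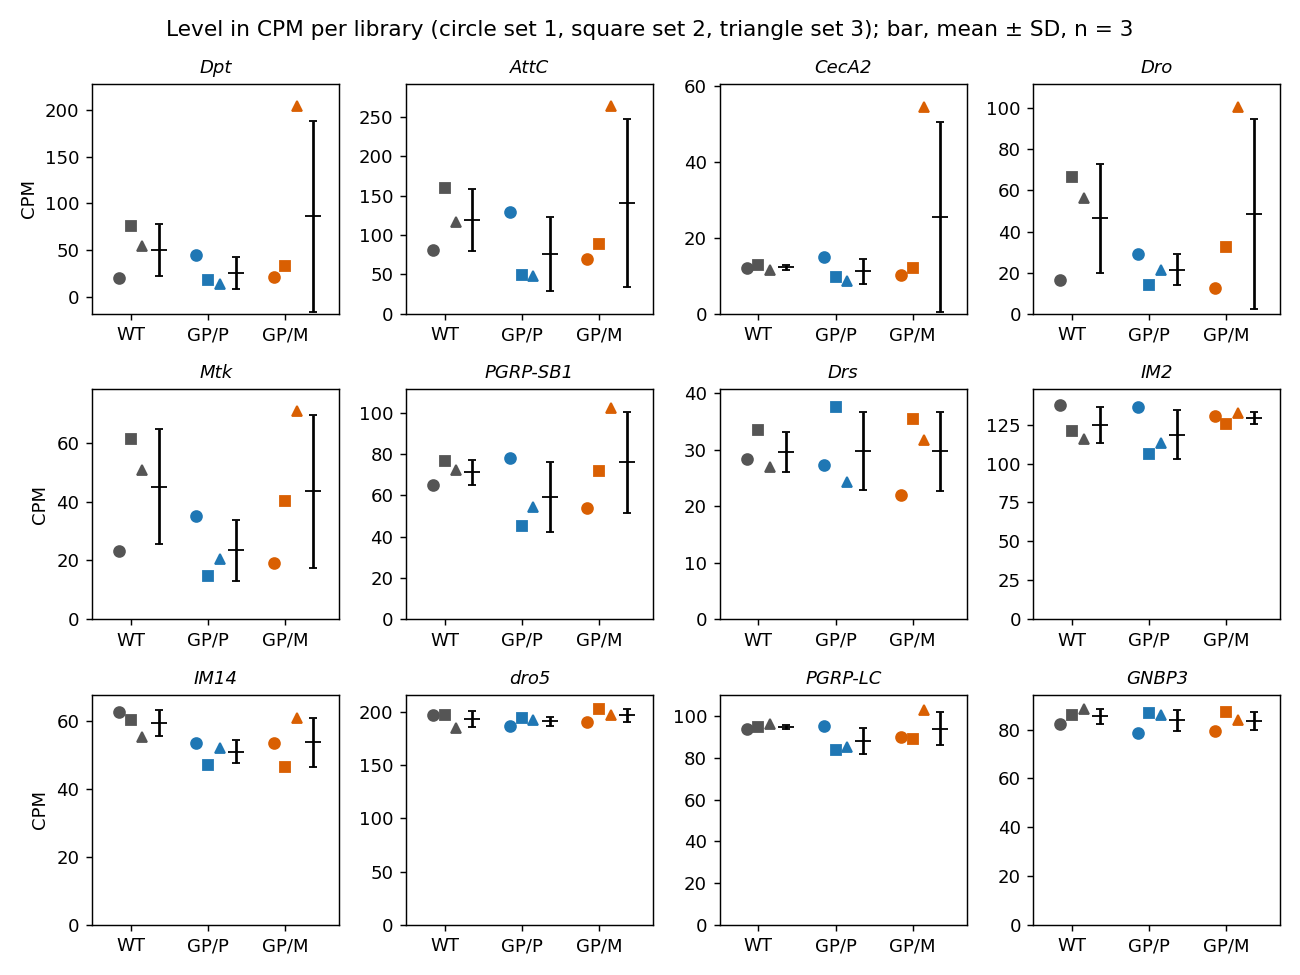
CPM of 12 members in each library (circle, set 1; square, set 2; triangle, set 3), with the mean and SD of the 3 libraries beside each group; each panel has its own axis. Dpt, AttC, CecA2 and Dro have their highest point in GP/M 3, while dro5 and GNBP3 stay within a narrow band in all 3 groups.

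The 12 peptide genes from the attacins to Mtk, a group formed after their values were seen and given no test, differed in direction between sets and with the library left out. Against WT, GP/P was lower in 12 of 12 by the fitted log2 change, with a median of -0.44 (0.735-fold), beside 48.2% of all genes. In GP/M, 11 of 12 were above WT with a median of 0.51 (1.42-fold), beside 51.7% of all genes. Without GP/M 3, 2 of 12 were above WT and the median was -0.33 (0.795-fold). GP/P was below GP/M in 12 of 12, beside 49% of all genes, and the median went from -1.02 to -0.11 without GP/M 3. Within sets, GP/P was above WT for 11 of 12 in set 1 (median log2 difference 0.43) and for 1 and 0 of 12 in sets 2 and 3 (medians -1.07 and -1.08). GP/M was above WT for 2, 2 and 12 of 12 in sets 1, 2 and 3 (medians -0.26, -0.21 and 1.40).

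**Figure D4:**
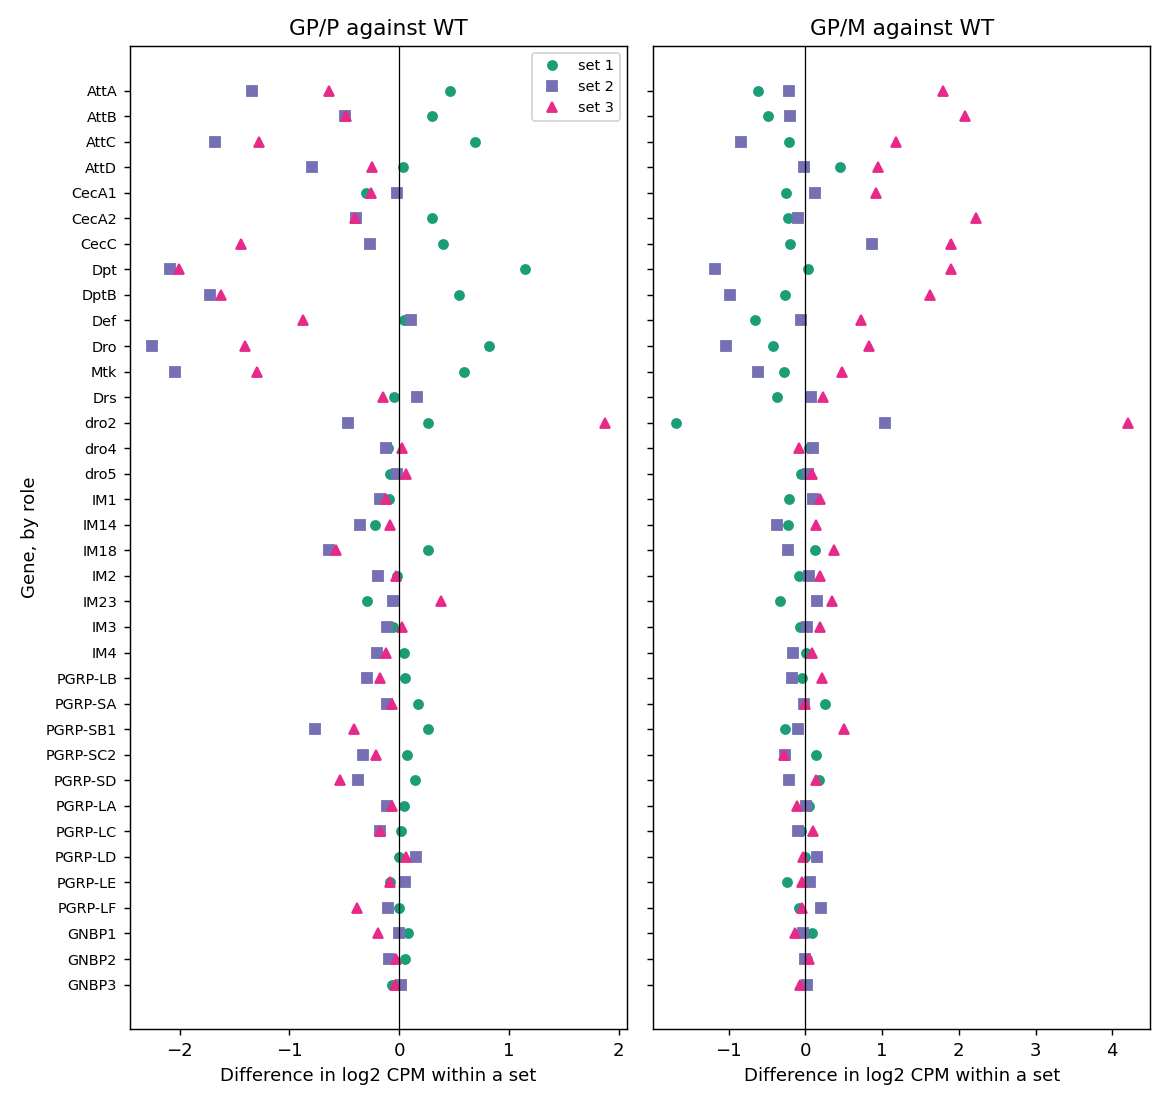
Difference in log2 CPM between libraries of the same set, GP/P minus WT (left) and GP/M minus WT (right), for the 36 tested members; the symbols mark sets 1 to 3 and the vertical line no difference. On the left panel the set 1 difference is above 0 for 11 of the 12 genes from AttA to Mtk, and on the right panel the set 3 difference is above 0 for all 12.

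Among the drosomycins, Drs was at 28.2, 33.5 and 26.9 CPM in WT 1 to 3, 27.3, 37.6 and 24.3 in GP/P 1 to 3 and 21.9, 35.4 and 31.8 in GP/M 1 to 3. The set 2 library was the highest in each group, and the group means differed by less than the spread within them. Drs gave 1.00-fold (95% interval 0.704 to 1.44) for GP/P against WT and 1.00-fold (95% interval 0.701 to 1.43) for GP/M against WT. The gene dro4, one of the drosomycin-like paralogues, was at 189, 209.6 and 178 CPM in WT 1 to 3, 176, 193 and 182 in GP/P 1 to 3 and 195, 224 and 168 in GP/M 1 to 3, and dro5 at 198, 198 and 185 CPM in WT 1 to 3, 187, 195 and 193 in GP/P 1 to 3 and 190.3, 203 and 197 in GP/M 1 to 3. All 9 libraries were close in dro5, with a highest to lowest ratio of 1.10, and it gave 0.990-fold (95% interval 0.922 to 1.06) for GP/P against WT. The paralogue dro2 was rare, with 14, 2 and 0 counts in WT, 16, 1 and 6 in GP/P and 3, 6 and 36 in GP/M.

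The IM peptides were first found in the blood of immune-challenged flies, and the Bomanins among them are needed for survival of Gram-positive and fungal infection. IM14 (Daisho 2), one of a pair of peptides known from defence against filamentous fungi, was at 62.7, 60.4 and 55.3 CPM in WT 1 to 3, 53.6, 47.2 and 52.2 in GP/P 1 to 3 and 53.7, 46.6 and 61.1 in GP/M 1 to 3. Every GP/P library was below every WT library, and GP/P was lower in each of the 3 sets. The WT libraries averaged 59.5 ± 3.79 CPM, those of GP/P 51.0 ± 3.37 and those of GP/M 53.8 ± 7.25 (SD, n = 3). IM14 was the only member whose GP/P and WT groups did not overlap, 1 of 36 beside 4.41% of all genes on the lower side and 4.07% on the higher side. GP/P against WT was 0.858-fold (95% interval 0.750 to 0.981), with an unadjusted p of 0.0282 and, from edgeR, an adjusted p of 1. GP/M against WT was 0.905-fold (95% interval 0.792 to 1.03), and without GP/M 3 the log2 change went from -0.14 to -0.25.

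IM4 (Daisho 1) was at 275, 266 and 271 CPM in WT 1 to 3, 284, 231 and 250.0 in GP/P 1 to 3 and 276, 238 and 288 in GP/M 1 to 3. GP/P 2 and GP/M 2 were low and the groups overlapped. IM4 gave 0.941-fold (95% interval 0.835 to 1.06) for GP/P against WT. IM3 (Bomanin S3) was at 130.4, 109.9 and 104 CPM in WT 1 to 3, 125, 102 and 106 in GP/P 1 to 3 and 124, 112 and 118 in GP/M 1 to 3, with the set 1 library highest in each group. IM18 was at 63.6, 93.7 and 93.1 CPM in WT 1 to 3, 76.4, 60.2 and 62.3 in GP/P 1 to 3 and 69.3, 80.2 and 121 in GP/M 1 to 3, and reads of an overlapping gene of the same strand, CG10332, cannot be told apart from it. It gave 0.735-fold (95% interval 0.488 to 1.11) for GP/P against GP/M. IM1, IM2 and IM23 (a bicipital Bomanin) ranged from 83.5 to 117, from 106 to 138 and from 8.41 to 13.2 CPM. The 7 IM genes were all below WT in GP/P, with fitted log2 changes from -0.33 to -0.01 and a median of -0.09. In GP/M they lay between -0.14 and 0.11.

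The secreted PGRPs either sense peptidoglycan or, as amidases, degrade it. PGRP-SD, a sensor known from both Toll and Imd activation, was at 17.5, 19.5 and 20.3 CPM in WT 1 to 3, 19.3, 14.99 and 14.0 in GP/P 1 to 3 and 19.8, 16.8 and 22.5 in GP/M 1 to 3. GP/P 2 and GP/P 3 were the lowest libraries, GP/P 1 was in the range of WT, and the groups overlapped. PGRP-SD gave 0.841-fold (95% interval 0.688 to 1.03) for GP/P against WT. GP/P against GP/M was 0.813-fold (95% interval 0.666 to 0.993), lower in each of the 3 sets, with an unadjusted p of 0.0441 and, from edgeR, an adjusted p of 1. PGRP-SB1 was at 64.8, 76.8 and 72.2 CPM in WT 1 to 3, 77.8, 45.1 and 54.4 in GP/P 1 to 3 and 53.9, 71.9 and 102 in GP/M 1 to 3, with its highest library in GP/M 3 and its lowest in GP/P 2.

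PGRP-SC2, a gut amidase gene, was at 39.2, 46.1 and 49.9 CPM in WT 1 to 3, 41.2, 36.7 and 43.0 in GP/P 1 to 3 and 43.2, 38.3 and 41.3 in GP/M 1 to 3. The 2 highest libraries were WT 3 and WT 2, but WT 1 lay within the other groups. It gave 0.895-fold (95% interval 0.785 to 1.02) for GP/P against WT and 0.909-fold (95% interval 0.797 to 1.04) for GP/M against WT. PGRP-SA, the Toll-side sensor of Lys-type peptidoglycan, ranged from 15.7 to 19.1 CPM and PGRP-LB from 25.9 to 40.3 CPM. Exons of PGRP-SD overlap those of CG7492 on the other strand, and their reads may be mixed, since the handling of strand was not stated.

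Among the membrane and intracellular PGRPs the highest library was 1.09 times the lowest for PGRP-LA and 1.35 times for PGRP-LF. PGRP-LC, the main Imd receptor, was at 93.8, 94.8 and 96.1 CPM in WT 1 to 3, 95.1, 83.9 and 85.2 in GP/P 1 to 3 and 89.99, 88.9 and 103 in GP/M 1 to 3. GP/P 2 and GP/P 3 were the lowest libraries, and it gave 0.928-fold (95% interval 0.842 to 1.02) for GP/P against WT. PGRP-LE, the intracellular sensor, was at 33.7, 29.0 and 30.2 CPM in WT 1 to 3, 31.9, 30.1 and 28.5 in GP/P 1 to 3 and 28.6, 30.3 and 29.4 in GP/M 1 to 3. WT 1 was highest, the groups overlapped, and it gave 0.950-fold (95% interval 0.859 to 1.05) for GP/M against WT. PGRP-LF, a receptor-like inhibitor of Imd signalling, was at 15.01, 16.5 and 19.2 CPM in WT 1 to 3, 14.995, 15.4 and 14.7 in GP/P 1 to 3 and 14.2, 19.0 and 18.7 in GP/M 1 to 3, high in WT 3, GP/M 2 and GP/M 3. It gave 0.869-fold (95% interval 0.734 to 1.03) for GP/P against GP/M. Its exons overlap those of UGP on the other strand. PGRP-LA and PGRP-LD ranged from 32.0 to 34.8 and from 32.6 to 38.4 CPM, and gave 0.969-fold (95% interval 0.892 to 1.05) and 1.05-fold (95% interval 0.947 to 1.17) for GP/P against WT.

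The GNBP genes encode a family of secreted pattern recognition proteins. GNBP3, the sensor of fungal glucans, was at 82.3, 85.8 and 88.4 CPM in WT 1 to 3, 78.8, 86.8 and 85.9 in GP/P 1 to 3 and 79.6, 87.1 and 83.9 in GP/M 1 to 3. The 3 groups overlapped almost entirely, and it gave 0.981-fold (95% interval 0.904 to 1.06) for GP/P against WT and 0.977-fold (95% interval 0.900 to 1.06) for GP/M against WT. GNBP1, which works with PGRP-SA, was at 15.6, 16.2 and 17.4 CPM in WT 1 to 3, 16.5, 16.1 and 15.2 in GP/P 1 to 3 and 16.5, 15.9 and 15.9 in GP/M 1 to 3, with WT 3 highest. It gave 0.973-fold (95% interval 0.880 to 1.08) for GP/P against WT. GNBP2 was at 35.96, 39.9 and 37.3 CPM in WT 1 to 3, 37.4, 37.4 and 36.5 in GP/P 1 to 3 and 36.6, 39.9 and 38.7 in GP/M 1 to 3. Its groups overlapped, and GP/P against GP/M gave 0.966-fold (95% interval 0.887 to 1.05).

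Over all 36 tested members, 33 had a fitted log2 change below 0 in GP/P against WT, beside 48.2% of all genes, and the median was -0.14 beside 0.00 for all genes. In GP/M against WT 27 were above 0, beside 51.7%, with a median of 0.04, and without GP/M 3 the median was -0.08. In GP/P against GP/M 32 were below 0, beside 49%, with a median of -0.15 that became -0.06 without GP/M 3. The comparisons with WT share the WT libraries, and those with GP/M share the GP/M libraries. Within sets the median of GP/P minus WT over the members was 0.05, -0.20 and -0.18 in sets 1, 2 and 3, with 23, 5 and 6 of 36 above 0. Many members were high or low in the same libraries, so these counts of members are not counts of separate observations of descent. The number of members lower in all 3 sets was 5 of 36 for GP/P against WT, beside 14.1% of all genes, and 5 of 36 for GP/P against GP/M, beside 13.1%. GP/P 2 and GP/P 3 were the lowest of the 9 libraries for 15 and 10 of the 36 members, against 7.95% and 11.7% of all genes.

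**Figure D5:**
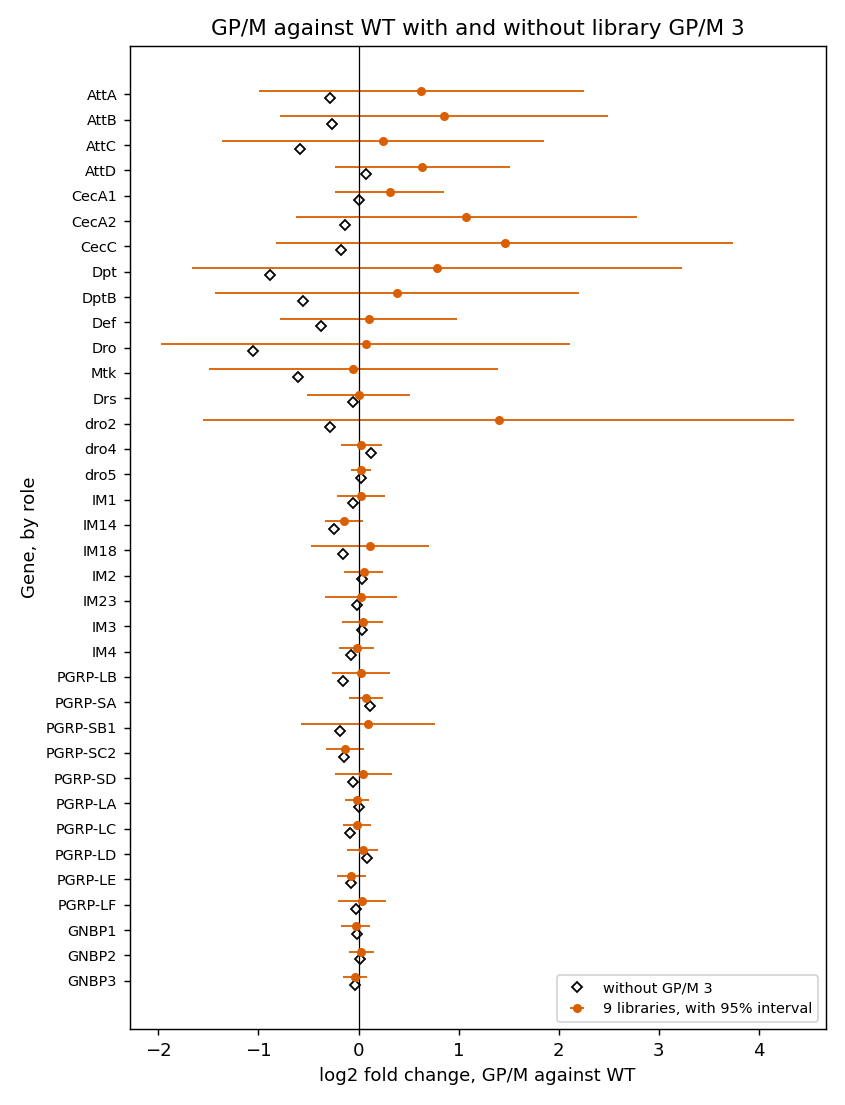
Fitted log2 fold change of GP/M against WT for the 36 tested members, from all 9 libraries (filled points with 95% intervals) and without GP/M 3 (open diamonds). Dpt moves from 0.79 to -0.88 and Dro from 0.07 to -1.06, while the points of PGRP-LA and the GNBP genes stay close to 0.

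Few members were called between the experiment sets, with group as a term in the fit, at shares near or below those of all genes. Against set 1, set 3 had 3 of 36 members called (8.33% beside 18.7% of all genes) and set 2 had 1 (2.78% beside 2.47%). Set 3 against set 2 had 2 (5.56% beside 5.92%). All calls were by edgeR's quasi-likelihood test with Benjamini-Hochberg adjustment. IM3 was lower in set 3 (0.865-fold, 95% interval 0.812 to 0.920, adjusted p = 0.00247) and in set 2 (0.852-fold, 95% interval 0.800 to 0.907, adjusted p = 0.00534) than in set 1. AttD was higher in set 3 than in set 2 (2.18-fold, 95% interval 1.52 to 3.13, adjusted p = 0.0143) and set 1 (1.63-fold, 95% interval 1.16 to 2.27, adjusted p = 0.0406). PGRP-LF was higher in set 3 than in set 1 (1.19-fold, 95% interval 1.05 to 1.34, adjusted p = 0.0409), and dro4 was lower in set 3 than in set 2 (0.846-fold, 95% interval 0.786 to 0.910, adjusted p = 0.0143).

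Without GP/M 3 the AttD calls ended (adjusted p = 0.198 and 0.422), as did those of dro4 (adjusted p = 0.0945) and PGRP-LF (adjusted p = 0.163) in the same edgeR fit. The AttD call against set 2 also ended without GP/P 2 or GP/M 2 (adjusted p = 0.0753 and 0.189), and that against set 1 without WT 1, GP/P 2, GP/P 3 or GP/M 1 (adjusted p = 0.131, 0.0510, 0.0508 and 0.278). PGRP-LF lost its call without WT 1, WT 3, GP/P 2 or GP/M 1 (adjusted p = 0.151, 0.218, 0.0632 and 0.291), and dro4 without GP/M 2 (adjusted p = 0.113). IM3 kept its call in set 3 against set 1 without any single library, and in set 2 against set 1 it lost it without GP/P 1 or GP/P 2 (adjusted p = 0.0504 and 0.0778). AttD lost both calls with DESeq2 (adjusted p = 0.109 and 0.343) and with no group term (adjusted p = 0.0642 and 0.148), and the call against set 1 with limma-voom (adjusted p = 0.0554). PGRP-LF lost its call with upper quartile factors, DESeq2 and no group term (adjusted p = 0.0556, 0.192 and 0.0938), at log2 changes of 0.22, 0.25 and 0.25 against 0.25 with edgeR's TMM factors and the group term. Without GP/M 3 the log2 changes were 0.23 for PGRP-LF against 0.25, -0.16 for dro4 against -0.24, and for AttD 0.83 and 0.39 against 1.12 and 0.70. Dpt and AttC, which spread widely, were called in no comparison of sets.

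No gene of the pathways around the members was called across the descent groups. Of 19 Toll pathway genes, 19 Imd pathway genes, 19 further humoral effectors and 8 melanisation genes tested, 0 were called in each descent comparison by edgeR's quasi-likelihood test, and 0 by DESeq2 and limma-voom, which called no gene. The 19 Imd genes had medians of 0.00 in both comparisons with WT, the same as all genes. The Imd pathway sum was 1702 to 1782 CPM in WT, 1725 to 1747 in GP/P and 1714 to 1779 in GP/M. The effectors with the smallest p in GP/P against WT were the Bomanin genes CG5778 (BomT3) and CG15068 (BomS6). CG5778 was at 155, 143 and 139.5 CPM in WT 1 to 3, 134, 118 and 123 in GP/P 1 to 3 and 129.7, 148 and 148 in GP/M 1 to 3. It gave 0.855-fold for GP/P against WT at an adjusted p of 1 by edgeR's test. Each GP/P library was below each WT library for CG5778, CG15068 and CG15065 (BomS5) of this list, as for 4.41% of all genes.

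Between sets, set 3 was higher than set 1 in 4 of 19 Toll genes and 1 of 19 Imd genes, with 0 lower, beside 11.7% of all genes called as higher. Dif, a Toll-activated transcription factor gene, gave 1.17-fold (adjusted p = 0.00113) and Tl, the Toll receptor gene, 1.15-fold (adjusted p = 0.0112) by edgeR's test. The gene pirk, a negative regulator of Imd signalling, was at 15.8, 13.9 and 21.9 CPM in WT 1 to 3, 13.4, 12.5 and 17.0 in GP/P 1 to 3 and 11.7, 13.7 and 21.1 in GP/M 1 to 3. It was highest in set 3 in each group, at 1.47-fold over set 1 (adjusted p = 0.000285) and 1.49-fold over set 2 (adjusted p = 0.00137) by the same test. The further effectors had 2 called higher and 3 lower in set 3 against set 1, beside 11.7% and 6.92% of all genes, among them LysD at 0.747-fold (adjusted p = 0.000215) and TepIV (Tep4), a thioester protein gene, at 1.16-fold (adjusted p = 0.000408).

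In the authors' deposited table no member had an adjusted p under 0.05, and 0, 4 and 1 genes in all did for the comparisons of GP/P with WT, GP/M with WT and GP/P with GP/M. The member with the smallest p-value for GP/M against WT in the authors' deposited table was CecC, with an unmoderated log2 fold change of 1.00 and a moderated one of 0.03 (p-value 0.0132).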

How the data were processed

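Whole-fly RNA was selected on polyA and sequenced, as the labels' protocols state. The authors deposited raw counts per gene in 3 overlapping tables, with 0 values that differed between tables for one library. Per the submitters' processing notes, which give no versions, Novoalign and DESeq were used with dm3. How multi-mapping reads and strand were handled was not stated in those notes or the labels. The log2 fold changes and p-values in the deposited tables are the authors' own, per the file headers. The 18 columns of normalised values were not used.

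Counts of the 9 libraries were scaled by TMM, filtered with filterByExpr and tested by edgeR 4.0.16's quasi-likelihood test in R 4.3.3, with Benjamini-Hochberg adjustment over 12913 genes. Comparisons of descent used the 3 groups without a term for set, and comparisons of sets had group as a term. The code was tested on simulated data. Log2 CPM had a prior count of 2. Alternatives were RLE and upper quartile factors, no filter, DESeq2 1.42.0, limma-voom 3.58.1, the replicate block, the compared groups alone and leaving out each library. The block without GP/M 3 was added after the data had been seen. P-values weigh a fitted difference against the spread between these libraries.

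Members and lists were chosen with earlier results of these data known. Values in every library are given for members called in any comparison, for the member of each role with the highest level per length or the smallest p in a descent comparison, and for PGRP-SD and Drs. CecA2, Dro, dro5 and the genes described for GP/M 3 were added after their values were seen. Of the 10 pathway and marker lists, 121 genes were matched and 13 were not. Each of the 10 lists had 0 genes called in the descent comparisons.

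Per the design text, 1 set came from each experiment, so libraries of the same number form pairs across groups. The main descent fits did not use this pairing, and the replicate block did. Deviations from the group means correlated at 0.066 to 0.293 in the 9 pairs of libraries with the same number, above 0.1 in 8, and at -0.267 to 0.027 between other numbers. Taking out the group means pushes the other pairs below 0 when same-number pairs are above it, so these ranges are not independent.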

Additional observations from a re-analysis of the deposited data

How the results depend on the processing

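The count of members called in each descent comparison was 0 under every alternative run. With the replicate block the paired fit also called 0 members, and its median log2 changes over the members were -0.148 for GP/P against WT, 0.036 for GP/M against WT and -0.154 for GP/P against GP/M. The block raised the genes at an unadjusted p under 0.05 from 334 to 885, from 198 to 452 and from 220 to 592. Among the 36 members, 1, 1 and 4 were at that level with the block, beside 6.85%, 3.5% and 4.58% of all genes. Without the block they were 1, 0 and 2. The edgeR intervals and p-values given for single genes in the descent comparisons come from the fit without the block. Over the alternatives the medians ranged from -0.201 to -0.071, from -0.086 to 0.078 and from -0.224 to -0.030. The second was below 0 without GP/M 3 (-0.078, and -0.086 with the block).

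Members called between sets numbered 1 in set 3 against set 1 and 1 in set 3 against set 2 with DESeq2, and again 1 and 1 with no group term. In set 2 against set 1 upper quartile factors gave 2. Leaving out single libraries gave 1 to 5, 0 to 5 and 0 to 5 called members for set 3 against set 1, set 2 against set 1 and set 3 against set 2.

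Without GP/M 3 the log2 change turned in sign for 19 of the 36 members in GP/M against WT, Dro among them (0.07 to -1.06), for 6 in GP/P against GP/M and for 0 in GP/P against WT. Of the members chosen by the rule for named genes, those that turned when any single library was left out had lowest and highest values in GP/M against WT of -0.584 and 0.575 for AttC, -0.174 and 1.932 for CecC, -0.378 and 0.331 for Def, -0.882 and 1.250 for Dpt, -0.138 and 0.183 for Drs, -0.063 and 0.000 for GNBP3, -0.079 and 0.060 for IM4, -0.607 and 0.306 for Mtk, -0.087 and 0.027 for PGRP-LC, -0.183 and 0.290 for PGRP-SB1, -0.058 and 0.151 for PGRP-SD, -0.287 and 3.639 for dro2 and -0.079 and 0.122 for dro4. For GP/P against WT they were -0.202 and 0.135 for Drs, -0.073 and 0.002 for GNBP1 and -0.057 and 0.015 for GNBP3. For GP/P against GP/M they were -0.206 and 0.145 for Drs, -0.028 and 0.048 for GNBP3 and -0.195 and 0.009 for dro4. None of these was called, and the cause was not tested beyond the library left out.

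Drs, close to 0 throughout, also turned for GP/P against WT with upper quartile factors (-0.000), limma-voom (-0.013) and the replicate block (-0.006), for GP/M against WT with the same 3 (-0.001, -0.022 and -0.004), and for GP/P against GP/M with DESeq2 (-0.001) and the block (-0.003). With the replicate block and without GP/M 3, chosen after seeing the data, GP/M against WT turned to -0.732 for AttC, -0.081 for CecA1, -0.035 for CecC, -0.509 for Def, -0.982 for Dpt, -0.165 for Drs, -0.205 for PGRP-SB1, -0.084 for PGRP-SD and -0.604 for dro2. In that fit GP/P against WT was -0.009 for Drs, and GP/P against GP/M was 0.027 for AttC, 0.024 for Dpt and -0.015 for GNBP3.

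The 3 libraries of a group limit these values most for the peptides that spread widely, where the intervals include changes of 2-fold and more. CecC, AttD and dro2 rest on few counts, and reads of AttA with AttB and of CecA1 with CecA2 cannot be told apart with certainty. The same applies where exons overlap those of another gene, as for AttC, DptB, IM18, PGRP-SD, PGRP-LF and PGRP-LD.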
